A study of Mus musculus with 20 samples.

Results

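The 40 genes described here encode the machinery of autophagy and the lysosome: the kinases that start autophagosome formation, the enzymes that attach ATG8 proteins to the membrane, the receptors that bind cargo, the transcription factors of the pathway, and proteins and enzymes of the lysosome. They were chosen by name, each from a list of gene symbols matched to the Ensembl identifiers of the expression table. All 40 were found among its 37748 entries, and all 40 reached a value of 1 in 5 or more of the 20 libraries, as did 10890 entries in all. They were measured by RNA sequencing in CFU-E, progenitors committed to the red cell lineage. These were sorted from mouse bone marrow by high c-Kit and by CD105, among living cells that lacked lineage markers, Sca-1, CD41, CD16/32 and CD150. The series title names mTORC1 signalling, and mTORC1 is a known inhibitor of autophagy.

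Of the 4 groups, each with 5 libraries, 1 held Mx1-Cre mice given PBS (saline) and 1 held Mx1-Cre mice given phenylhydrazine (PHZ), which destroys red cells and so brings on haemolytic anaemia. The other two held Mx1-Cre Srsf2P95H/+ mice (called P95H), with 1 mutant allele of the splicing factor gene Srsf2, given PBS or PHZ. Injections were subcutaneous, on days 0 and 1, with PHZ at 30 mg/kg, and cells were sorted on day 4. All mice, controls included, carried Mx1-Cre, in which an interferon-responsive promoter drives Cre in blood-forming and also other cells. The sources used here do not say when Cre was induced or how old the mice were. Each library name carries its own number, read here as that of 1 animal, so the spread below is taken as between mice and their libraries.

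In autophagy, a double membrane closes around cytoplasm or a marked organelle and fuses with a lysosome, whose acid hydrolases degrade the content. The ULK kinase complex starts the process, a lipid kinase complex with Beclin marks the site, and a conjugation system attaches ATG8 proteins (LC3 and GABARAP) to the growing membrane, where they hold cargo receptors. When nutrients are plentiful, mTORC1 at the lysosome inhibits the ULK kinases and keeps TFEB and TFE3, which drive lysosomal genes, out of the nucleus. Maturing red cells use autophagy to clear mitochondria and other organelles.

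The deposited values have the form of TPM, a measure per transcript length, scaled by 1 factor per library (0.940 to 1.10), so levels can be compared between genes. Sums per library ran from 924763 to 1085047 and the depth in reads is unknown from the table. All 14 CFU-E markers checked passed the filter on low values, and none was at 0 in a group. After PHZ, 3 of the 14 rose and 3 fell in Mx1-Cre, and 3 rose and 5 fell in P95H (limma). Tfrc, the transferrin receptor, rose by 0.89 and 0.75 on the log2 scale, and Kit was at -0.80 and -0.77. Of 4 megakaryocyte markers tested, 3 and 2 fell. Of 4 early progenitor markers tested, 1 rose and 2 fell in Mx1-Cre, and 2 rose and 2 fell in P95H. Gata2, a factor of early progenitors and mast cells, and Myb fell in both genotypes. Cd48 rose in both (1.63 and 1.46 on the log2 scale), and Hoxa9 rose in P95H (0.62). Between genotypes, no CFU-E, megakaryocyte or early progenitor marker was called under PBS. Under PHZ, the CFU-E marker Car1 was lower in P95H (-0.59, limma adjusted p = 0.00709). The megakaryocyte marker Gp9 was higher (0.54, limma adjusted p = 0.0399). Averaged over both treatments, 1 CFU-E and 1 early progenitor marker were lower in P95H, and 1 megakaryocyte marker was higher. The part of these shifts in the results below was not tested. The summed level of 18 granulocyte and monocyte markers ran from 459.9 to 967 in Mx1-Cre PBS, 153 to 1089 in Mx1-Cre PHZ, 571 to 2504 in P95H PBS and 159.6 to 601 in P95H PHZ libraries, with none of the 18 at 0 throughout a group. Of the 15 of these markers that could be tested, 1 fell with PHZ in Mx1-Cre and 15 fell in P95H (limma, adjusted p under 0.05). The 12 macrophage markers summed to at most 5.55 in any library. The 10 lymphoid markers summed to 5.3 to 6.88 and 7.18 to 20.6 under PBS in Mx1-Cre and P95H, and to at most 2.27 under PHZ. In such bulk libraries, fewer cells of a type and less RNA per cell cannot be told apart.

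The letters CACGTG, the core to which TFEB and TFE3 are known to bind, were looked for in the promoters of the 40 genes, since Tfeb and Tfe3 are members and several lysosomal members are textbook targets of both. RefSeq windows (GRCm38.p6) from 250 bases before to 50 bases after the start were at hand for 33 of the 40. CACGTG, which reads the same on both strands, lay in the windows of 9 of the 33 genes (27.3%), against 12.5% of the genes that passed the filter on low values and 8.09% of all genes with windows. The longer TCACGTGA, which contains CACGTG, lay in 4 (12.1%): Ctsd, Mcoln1, Atp6v0d1 and Atg3, against 2.53% and 1.12%. A match is a description of the letters and not of binding. Known targets were among the listed members, so these shares are no test of either factor. Below, the stretch from 120 bases before to 10 bases after the start is shown for 3 lysosomal membrane genes with matches, in capitals, and for Ctsc, which changed most and had none in its window. Each is read 5′ to 3′ along the gene's strand.

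Lamp1 (chr8:13159041-13159170, plus strand): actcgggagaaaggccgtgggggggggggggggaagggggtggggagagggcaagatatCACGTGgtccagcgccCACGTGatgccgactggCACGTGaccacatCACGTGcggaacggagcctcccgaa

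Mcoln1 (chr8:3500399-3500528, plus strand): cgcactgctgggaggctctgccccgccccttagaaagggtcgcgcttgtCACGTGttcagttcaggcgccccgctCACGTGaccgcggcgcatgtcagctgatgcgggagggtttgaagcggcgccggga

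Atp6v0d1 (chr8:105566055-105566184, minus strand): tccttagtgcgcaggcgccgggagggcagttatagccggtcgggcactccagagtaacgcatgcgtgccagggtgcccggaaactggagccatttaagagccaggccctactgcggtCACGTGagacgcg

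Ctsc (chr7:88277965-88278094, plus strand): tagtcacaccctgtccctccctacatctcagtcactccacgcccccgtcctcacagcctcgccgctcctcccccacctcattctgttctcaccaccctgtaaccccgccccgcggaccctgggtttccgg

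Lamp1 held 4 copies within this stretch, Mcoln1 held 2 and Atp6v0d1 held 1, which spans its start. No copy was found in the windows of Ctsc, Optn, Tax1bp1, Ulk2, Tfe3 or Hexa, the members with calls in both genotypes below, which says only that these letters are not there.

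The 5 most abundant of the 40 were 3 lysosomal genes and 2 ATG8 genes. Ctsd, an aspartic protease of the lysosome, had the highest mean over the 20 libraries (321.8), followed by Lamp1, a main protein of the lysosomal membrane (235.5), Gabarap (192.6), Ctsb, a cysteine protease (179.5), and Map1lc3b, which encodes LC3B (134). Becn1 (107.6), Sqstm1 (106) and Tax1bp1 (99.3) came next. At the low end, Tfeb had a mean of 4.01, against 28.9 for Tfe3, its relative, and Map1lc3a had 4.55. Ulk2 (7.70) stood below Ulk1 (18.2), and Atg14 (6.19) was the lowest member of the lipid kinase complex. Over the 20 libraries the coefficient of variation was 73.2% for Ctsc, 29.7% for Optn and between 4.62% (Atg5) and 20.4% (Ulk2) for the other members.

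**Figure D1:**
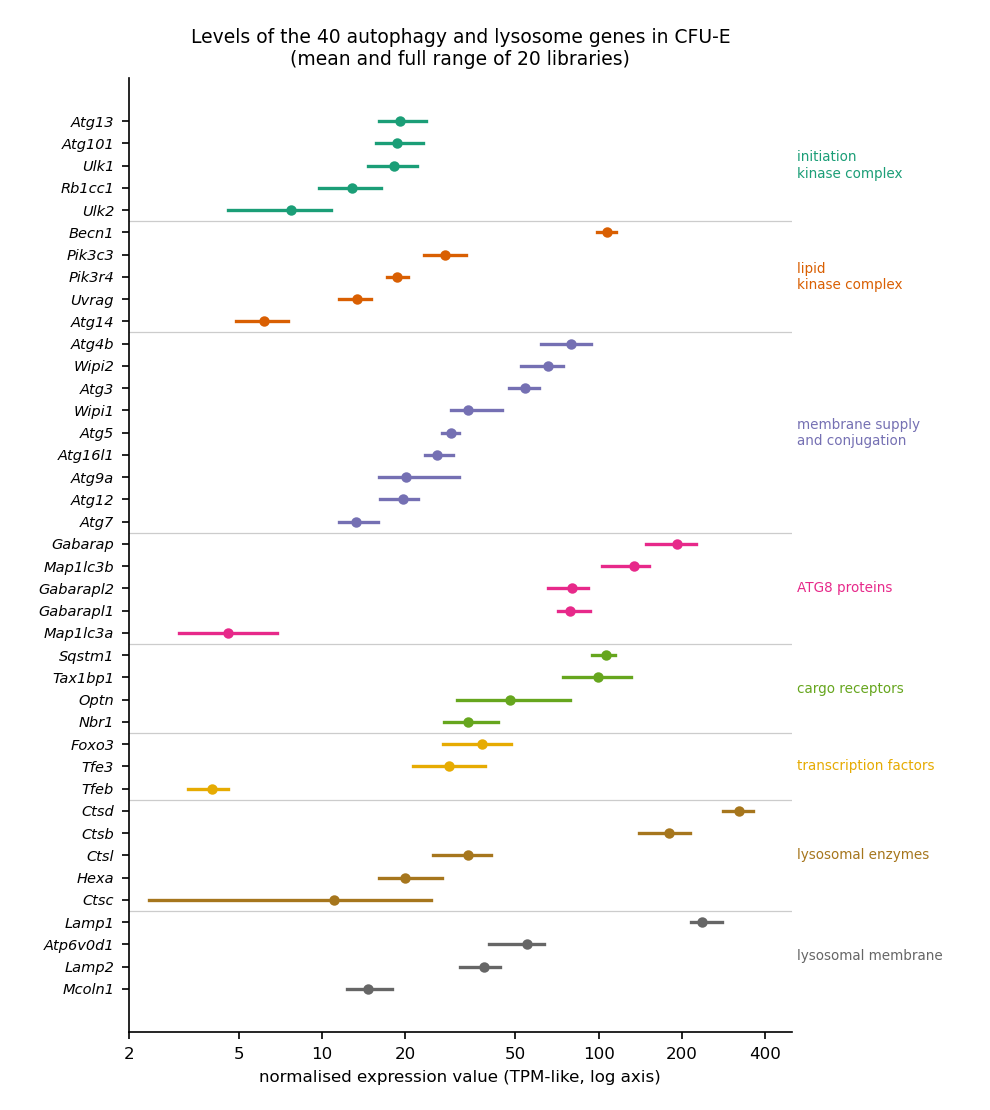
Mean (point) and full range (line) of each of the 40 genes over the 20 libraries, on a log axis of the normalised value, grouped by role. Ctsd and Lamp1 are highest with means of 321.8 and 235.5, Tfeb is lowest at 4.01, and Ctsc spans the widest range for its level, from 2.37 to 24.8.

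After PHZ, Ctsc and Tax1bp1 rose and Optn, Ulk2, Tfe3 and Hexa fell in both genotypes. In Mx1-Cre mice, Ctsc and Tax1bp1 rose and Ulk2, Map1lc3b, Optn, Tfe3, Hexa and Mcoln1 fell: 8 of 40 called by limma at an adjusted p under 0.05, where 31.9% of all genes were called. In P95H mice, Ctsc and Tax1bp1 rose and Ulk2, Atg4b, Gabarap, Optn, Tfe3, Hexa and Atp6v0d1 fell: 9 of 40, where 30.2% of all genes were called. The shares of 2 in 40 and of 6 and 7 in 40 stood beside 17.0% higher and 14.9% lower over all genes in Mx1-Cre, and 12.6% and 17.7% in P95H. The median log2 difference of the 40 was -0.054 in Mx1-Cre and -0.045 in P95H, and that of all genes tested -0.00153 and -0.0153. Fold changes throughout are differences of log2(value + 1) between group means, which understate the change of low genes.

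Libraries of the PHZ and PBS groups did not overlap for 8 of the 40 in Mx1-Cre (22.4% of all genes). Tax1bp1, Ctsc and Becn1 were above (12.6% of all genes), and Ulk2, Atg13, Optn, Tfe3 and Atp6v0d1 below (9.82%). In P95H they did not overlap for 6 (17.6% of all genes), with Tax1bp1, Lamp1 and Ctsc above (7.59%) and Optn, Tfe3 and Hexa below (10%). The PHZ effects in both genotypes come from separate libraries. Across the 40 genes, which are not independent replicates, Pearson's r between them was 0.966 and Spearman's rho 0.757, and without Ctsc they were 0.87 and 0.738. Over all 10890 genes, r was 0.871. The sign was shared by 30 of the 40 (75%) and by 79.3% of all genes.

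**Figure D2:**
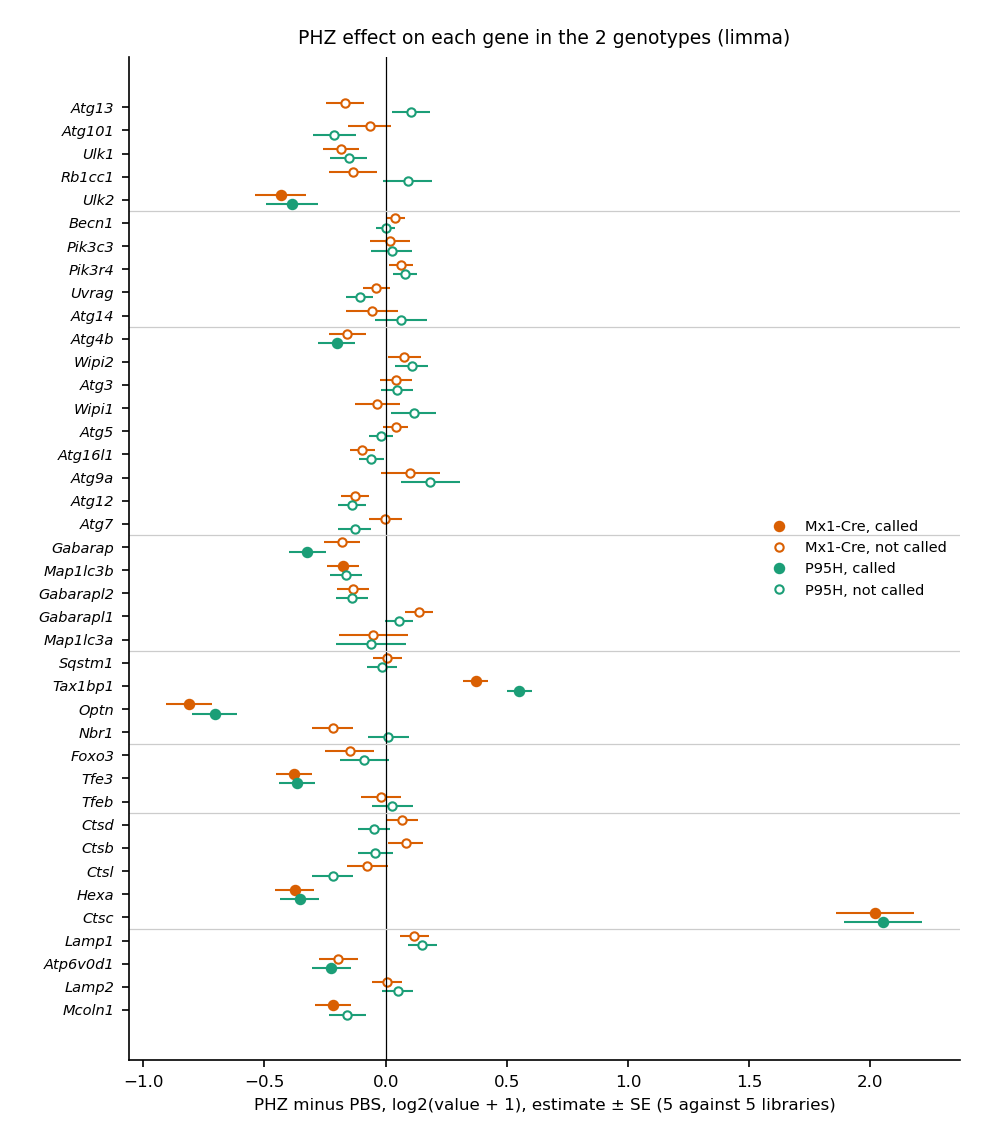
PHZ minus PBS on the log2(value + 1) scale for each gene, as the limma estimate ± SE, in Mx1-Cre (orange) and P95H (green) with 5 against 5 libraries each. Filled points passed an adjusted p of 0.05; Ctsc stands near 2 in both genotypes and the other members lie between -0.81 and 0.55.

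Among the 5 genes of the initiation complex, Ulk2, 1 of the 2 kinases that start autophagy (chromosome 11, 61775649 to 61855073, minus strand, GRCm38), fell in both genotypes. The 5 Ulk2 values in Mx1-Cre mice were 10.7, 9.24, 9.15, 9.26 and 7.898 under PBS and 6.62, 6.57, 6.59, 6.35 and 6.696 under PHZ. For Ulk2 in P95H mice, they were 6.903, 9.42, 9.2, 9.33 and 8.12 under PBS and 6.94, 4.56, 6.74, 5.704 and 8.06 under PHZ. All 5 PHZ libraries lay below all PBS libraries in Mx1-Cre, and the groups overlapped in P95H. The log2 difference was -0.43 (SE 0.107, adjusted p = 0.00398) in Mx1-Cre and -0.39 (SE 0.107, adjusted p = 0.00871) in P95H by limma. In P95H this call was lost once the per-library factor was divided out (adjusted p = 0.0535) and with the granulocyte markers as a covariate (adjusted p = 0.314).

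Ulk1, the other kinase and the one that mTORC1 is best known to inhibit, was not called. The 5 Ulk1 values in Mx1-Cre mice were 20.1, 18.1, 19.99, 21.96 and 19.2 under PBS and 18.2, 16.96, 16.8, 19.2 and 15.8 under PHZ. For Ulk1 in P95H mice, they were 17.8, 20.6, 18.8, 17.7 and 18.4 under PBS and 16.1, 14.6, 17.3, 15.6 and 20.4 under PHZ. Values were lower under PHZ on average, but groups overlapped in both genotypes, and limma gave -0.18 (SE 0.0757, adjusted p = 0.0685) in Mx1-Cre and -0.15 (SE 0.0757, adjusted p = 0.134) in P95H. Rb1cc1, the scaffold of the complex, and Atg13 and Atg101, its other subunits, were not called either. Atg13 had means of 20.1 ± 1.25 and 17.7 ± 0.951 under PBS and PHZ in Mx1-Cre (SD, n = 5) and of 18.6 ± 1.67 and 20.1 ± 2.68 in P95H, so its estimates had opposite signs, -0.17 (SE 0.0783) and 0.10 (SE 0.0783).

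None of the 5 genes of the lipid kinase complex was called after PHZ: Becn1 (Beclin), Pik3c3 (the catalytic subunit), Pik3r4 (its regulatory partner), Atg14 and Uvrag, which define separate versions of the complex. Their log2 differences lay between -0.06 and 0.06 in Mx1-Cre and between -0.11 and 0.08 in P95H. The 5 Becn1 values in Mx1-Cre mice were 113, 112, 112, 108 and 109 under PBS and 114, 113, 113, 114 and 116 under PHZ. For Becn1 in P95H mice, they were 102, 106, 104, 103 and 99.6 under PBS and 107, 98.8, 99.9, 99.01 and 109.7 under PHZ. Becn1 varied little within groups: all 5 PHZ values exceeded all PBS values in Mx1-Cre, by 0.04 (SE 0.0393, adjusted p = 0.473) in limma, and the groups overlapped in P95H. Both P95H groups lay below both Mx1-Cre groups on average, as described further on.

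Among the 9 genes of membrane supply and conjugation, 1 was called. Atg4b, the protease that primes ATG8 proteins, fell in P95H by 0.20 (SE 0.0754, adjusted p = 0.0462) on the log2 scale, from 82.3 ± 3.51 to 71.98 ± 10.8 (SD, n = 5), and was at -0.16 (SE 0.0754, adjusted p = 0.115) in Mx1-Cre (limma). The P95H call was lost on leaving out any 1 of P95H PBS 1, 2, 4 and 5, P95H PHZ 2, 3 and 4, adjusted p = 0.0615 to 0.144. Atg7 and Atg3, the enzymes that activate and transfer ATG8 proteins, Atg5, Atg12 and Atg16l1, which form the attachment complex, Atg9a, which supplies membrane lipid, and Wipi1 and Wipi2, which read the lipid mark, were not called in either genotype. Their estimates ran from -0.13 (Atg12) to 0.10 (Atg9a) in Mx1-Cre and from -0.14 (Atg12) to 0.18 (Atg9a) in P95H.

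Of the 5 ATG8 genes, 1 was called in each genotype, and not the same one. Map1lc3b (LC3B) fell in Mx1-Cre and Gabarap fell in P95H. The 5 Map1lc3b values in Mx1-Cre mice were 152, 135, 149.5, 149 and 135 under PBS and 132, 118, 123, 129 and 136 under PHZ. For Map1lc3b in P95H mice, they were 141, 141, 131, 142 and 142 under PBS and 126, 103, 133, 123 and 142 under PHZ. PHZ values were mostly the lower, with overlap in both genotypes. Limma gave -0.18 (SE 0.0667, adjusted p = 0.0485) in Mx1-Cre and -0.16 (SE 0.0667, adjusted p = 0.0704) in P95H, and the first was lost on leaving out any 1 of Mx1-Cre PBS 1, 3 and 4, Mx1-Cre PHZ 1, 2, 3 and 4, adjusted p = 0.055 to 0.122. The 5 Gabarap values in Mx1-Cre mice were 209, 212, 215, 225 and 187 under PBS and 179, 167, 186, 188 and 204 under PHZ. For Gabarap in P95H mice, they were 219, 201, 180.4, 223 and 221 under PBS and 179.6, 149, 148, 170.0 and 189 under PHZ. The P95H groups overlapped, and limma gave -0.32 (SE 0.0751, adjusted p = 0.00251). In Mx1-Cre it gave -0.18 (SE 0.0751, adjusted p = 0.0736), and the difference between genotypes was -0.14 (SE 0.106, adjusted p = 0.798). With the granulocyte markers as a covariate the P95H call was lost (adjusted p = 0.281). Gabarapl1, Gabarapl2 and Map1lc3a were not called, at 0.14 (SE 0.0586), -0.14 (SE 0.0651) and -0.05 (SE 0.144) in Mx1-Cre and 0.05 (SE 0.0586), -0.14 (SE 0.0651) and -0.06 (SE 0.144) in P95H.

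Of the 4 cargo receptors, Optn fell and Tax1bp1 rose. Optn, which encodes optineurin, a receptor for ubiquitin-marked mitochondria and bacteria (chromosome 2, 5020642 to 5064051, minus strand), fell in both genotypes. The 5 Optn values in Mx1-Cre mice were 62.6, 58.7, 59.3, 78.7 and 55.6 under PBS and 39.6, 32.2, 33.01, 36.3 and 35.4 under PHZ. For Optn in P95H mice, they were 49.6, 56.8, 56.3, 65.4 and 60.2 under PBS and 39.4, 30.8, 32.9, 31.4 and 40.9 under PHZ. All 10 PHZ libraries lay below all 10 PBS libraries. Means went from 62.97 ± 9.14 to 35.3 ± 2.93 in Mx1-Cre and from 57.7 ± 5.76 to 35.1 ± 4.7 in P95H (SD, n = 5). Limma gave -0.81 (SE 0.0946, adjusted p = 2.08e-06) and -0.71 (SE 0.0946, adjusted p = 9.88e-06).

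Tax1bp1, a receptor for ubiquitin-marked protein and ferritin cargo (chromosome 6, 52713729 to 52766780, plus strand), rose in both genotypes. The 5 Tax1bp1 values in Mx1-Cre mice were 86.6, 87.9, 85.9, 79.9 and 83.1 under PBS and 104, 107, 112, 114 and 112 under PHZ. For Tax1bp1 in P95H mice, they were 74.2, 81.4, 83.5, 84.1 and 87.1 under PBS and 124, 117, 131, 111 and 121 under PHZ. All 10 PHZ libraries lay above all 10 PBS libraries, and the estimates were 0.37 (SE 0.0511, adjusted p = 1.53e-05) in Mx1-Cre and 0.55 (SE 0.0511, adjusted p = 8.57e-08) in P95H (limma). The estimated rise was larger in P95H by 0.18 (SE 0.0722), with an unadjusted p of 0.0214 and an adjusted p of 0.798, so the genotypes were not shown to differ.

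Sqstm1, the best known receptor, whose protein is itself degraded by autophagy, showed no call at the transcript level. The 5 Sqstm1 values in Mx1-Cre mice were 112, 96.1, 111, 113 and 103 under PBS and 108, 96.6, 110.2, 111 and 112 under PHZ. For Sqstm1 in P95H mice, they were 102, 103, 103, 107 and 109.8 under PBS and 111, 94.9, 106, 94.5 and 115 under PHZ. The 4 groups overlapped throughout, with 0.0068 (SE 0.0608, adjusted p = 0.946) in Mx1-Cre and -0.01 (SE 0.0608, adjusted p = 0.885) in P95H by limma. Nbr1, a related receptor, had -0.22 (SE 0.0847, adjusted p = 0.0528) in Mx1-Cre and 0.01 (SE 0.0847, adjusted p = 0.944) in P95H.

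Tfe3, which with TFEB drives lysosomal and autophagy genes (chromosome X, 7762560 to 7775202, plus strand), fell in both genotypes. The 5 Tfe3 values in Mx1-Cre mice were 32.5, 30.2, 33.7, 38.8 and 30.8 under PBS and 25.3, 23.9, 24.3, 25.5 and 27.1 under PHZ. For Tfe3 in P95H mice, they were 30.5, 32.2, 28.5, 34.5 and 35.6 under PBS and 25.9, 21.3, 24.5, 24.9 and 27.3 under PHZ. PHZ values lay below all PBS values within each genotype, and limma gave -0.38 (SE 0.0743, adjusted p = 0.000608) in Mx1-Cre and -0.37 (SE 0.0743, adjusted p = 0.000788) in P95H. With the granulocyte markers as a covariate the P95H call was lost (adjusted p = 0.218). The 5 Tfeb values in Mx1-Cre mice were 3.67, 3.97, 4.56, 4.57 and 3.55 under PBS and 4.15, 3.73, 4.07, 4.002 and 3.94 under PHZ. For Tfeb in P95H mice, they were 3.73, 3.94, 4.47, 3.28 and 4.41 under PBS and 4.15, 4.24, 3.46, 4.49 and 3.92 under PHZ. Tfeb was low in all libraries and its groups overlapped, with -0.02 (SE 0.0842, adjusted p = 0.891) and 0.03 (SE 0.0842, adjusted p = 0.834). Foxo3 encodes a forkhead factor that drives autophagy genes in maturing red cells. The 5 Foxo3 values in Mx1-Cre mice were 41.5, 39.97, 42.9, 42.8 and 38.03 under PBS and 42.9, 36.2, 32.96, 39.2 and 34.1 under PHZ. For Foxo3 in P95H mice, they were 37.3, 37.8, 37.4, 36.1 and 37.3 under PBS and 35.3, 27.4, 36.7, 30.3 and 48.2 under PHZ. Its PHZ groups spread widely, and limma gave -0.15 (SE 0.101, adjusted p = 0.281) and -0.09 (SE 0.101, adjusted p = 0.539).

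At the lysosomal membrane, Mcoln1, a calcium channel, fell in Mx1-Cre, and Atp6v0d1, a subunit of the proton pump, fell in P95H. The 5 Mcoln1 values in Mx1-Cre mice were 16.6, 16.6, 15.6, 17.5 and 13.3 under PBS and 13.1, 14.3, 12.9, 14.3 and 12.9 under PHZ. For Mcoln1 in P95H mice, they were 14.9, 17.9, 13.4, 15.4 and 15.4 under PBS and 12.3, 13.5, 13.5, 14.3 and 14.7 under PHZ. Both genotypes overlapped between treatments, and limma gave -0.22 (SE 0.0756, adjusted p = 0.0316) in Mx1-Cre and -0.16 (SE 0.0756, adjusted p = 0.119) in P95H. The first was lost on leaving out any 1 of Mx1-Cre PBS 1, 2 and 4, Mx1-Cre PHZ 1, 3 and 5, adjusted p = 0.0598 to 0.0957. Atp6v0d1 went from 59.9 ± 3.3 to 51.7 ± 8.66 in P95H (SD, n = 5), -0.22 (SE 0.0805, adjusted p = 0.0387) by limma, and from 57.9 ± 3.06 to 50.4 ± 1.66 in Mx1-Cre, -0.20 (SE 0.0805, adjusted p = 0.0688). Its P95H call was lost on leaving out any 1 of P95H PBS 2, 3 and 4, P95H PHZ 2, 3 and 4, adjusted p = 0.0654 to 0.133.

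The 5 Lamp1 values in Mx1-Cre mice were 217, 226, 227, 215 and 226 under PBS and 225, 273, 266, 221 and 227 under PHZ. For Lamp1 in P95H mice, they were 225, 227, 226, 219 and 231 under PBS and 259, 249, 237, 279 and 233 under PHZ. Lamp1 was above all PBS libraries in the 5 P95H PHZ libraries and overlapped in Mx1-Cre, with 0.15 (SE 0.0596, adjusted p = 0.0603) in P95H and 0.12 (SE 0.0596, adjusted p = 0.139) in Mx1-Cre by limma, neither called. Lamp2, its relative that also serves chaperone-mediated autophagy, was at 0.0059 (SE 0.063) and 0.05 (SE 0.063).

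The largest change among the 40 was that of Ctsc, cathepsin C, a lysosomal peptidase best known for activating the serine proteases of granulocytes, mast cells and killer lymphocytes (chromosome 7, 88278085 to 88310888, plus strand). The 5 Ctsc values in Mx1-Cre mice were 4.46, 4.33, 2.93, 4.39 and 4.38 under PBS and 14.6, 16.7, 24.8, 20.1 and 23.1 under PHZ. For Ctsc in P95H mice, they were 3.66, 2.37, 2.61, 4.36 and 3.46 under PBS and 12.2, 18.9, 18.4, 21.4 and 13.6 under PHZ. All 10 PHZ values, the lowest of them 12.2, exceeded all 10 PBS values, the highest of them 4.46. Means went from 4.098 ± 0.657 to 19.9 ± 4.28 in Mx1-Cre and from 3.29 ± 0.808 to 16.9 ± 3.84 in P95H (SD, n = 5). Limma gave 2.02 (SE 0.161, adjusted p = 1.41e-08) and 2.05 (SE 0.161, adjusted p = 1.06e-08). The 15 granulocyte and monocyte markers tested had median log2 differences of -0.93 in Mx1-Cre and -1.86 in P95H. With these markers as a covariate the Ctsc calls held in both genotypes, and so did those of Optn, Tax1bp1 and Hexa. All 15 fell with PHZ in P95H, so marker level and treatment cannot be told apart there. Of 9 basophil and mast cell markers, only Gata2 and Il4 passed the filter on low values. Gata2 fell, but Il4 rose with Ctsc, from a mean of 0.545 to 1.31 in Mx1-Cre and from 0.712 to 2.53 in P95H (log2 differences of 0.60 and 1.06, limma adjusted p = 0.0221 and 0.000289). Of those below the filter, Cpa3, Fcer1a, Mcpt8, Prss34, Cma1 and Tpsb2 had group means of at most 0.33, and Tpsb2 was at 0 in all libraries. Means of Ms4a2 were 0.351 and 0.55 under PBS and PHZ in Mx1-Cre, and 0.585 and 0.605 in P95H. Under PHZ the means of Ms4a2 and Cma1 were higher in both genotypes and those of Cpa3, Mcpt8 and Prss34 lower in both. That of Fcer1a was lower in Mx1-Cre and higher in P95H. The part of granulocytes, basophils and mast cells in the Ctsc result was not tested.

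Hexa, a subunit of the hexosaminidase that degrades gangliosides (chromosome 9, 59539540 to 59565109, plus strand), fell in both genotypes. The 5 Hexa values in Mx1-Cre mice were 27.1, 25.3, 19.1, 19.9 and 23.7 under PBS and 17.5, 19.2, 16.4, 16.1 and 17.8 under PHZ. For Hexa in P95H mice, they were 22.7, 22.1, 21.7, 22.5 and 21.7 under PBS and 18.2, 16.2, 16.02, 19.1 and 16.1 under PHZ. Groups did not overlap in P95H and overlapped at the edge in Mx1-Cre, with -0.38 (SE 0.0804, adjusted p = 0.00132) in Mx1-Cre and -0.35 (SE 0.0804, adjusted p = 0.00201) in P95H (limma). Ctsd, the most abundant member, was not called. The 5 Ctsd values in Mx1-Cre mice were 327, 337, 339, 288 and 310.5 under PBS and 312, 360.1, 357, 325 and 322 under PHZ. For Ctsd in P95H mice, they were 356, 314, 296, 316 and 322 under PBS and 329, 282, 288, 308 and 347 under PHZ. Its groups overlapped, with 0.07 (SE 0.0654, adjusted p = 0.475) and -0.05 (SE 0.0654, adjusted p = 0.616). Ctsb and Ctsl, cysteine proteases, had 0.08 (SE 0.0724) and -0.08 (SE 0.0842) in Mx1-Cre and -0.04 (SE 0.0724) and -0.22 (SE 0.0842) in P95H, none called.

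**Figure D3:**
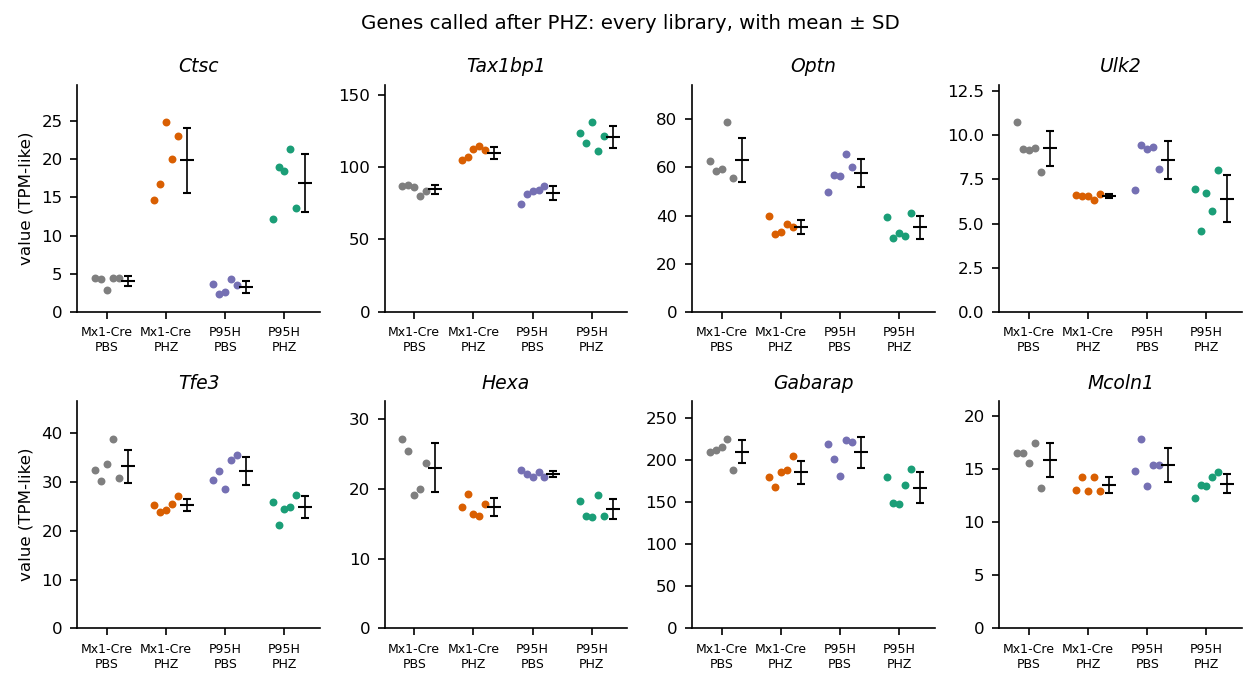
Every library (points) with mean ± SD (bars, n = 5) for 8 genes called after PHZ in at least 1 genotype, on linear axes of the normalised value from 0. Ctsc, Tax1bp1, Optn and Tfe3 show no overlap between PBS and PHZ libraries within a genotype, whereas Gabarap and Mcoln1 overlap.

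In Mx1-Cre, 13 of 40 were called after quantile normalization (2 higher, 11 lower), where 31.6% of all genes were called, and 14 with the compared groups fitted alone (2 higher, 12 lower), where 3589 of 10890 genes were. With the per-library factor divided out, 3 rose and 4 fell in Mx1-Cre and 6 rose and 4 fell in P95H. The split of all genes moved from 1856 higher and 1618 lower to 2232 and 1219 in Mx1-Cre, and from 1371 and 1923 to 2575 and 1117 in P95H. With a granulocyte and monocyte marker covariate, 4 of 40 were called in P95H in place of 9 (Ctsc, Tax1bp1, Optn and Hexa), while the share of all genes called went from 30.2% to 8.82%. Among the members whose P95H calls were lost, the estimates under the covariate were -0.27 for Ulk2, -0.19 for Gabarap, -0.20 for Tfe3, -0.09 for Atg4b and -0.16 for Atp6v0d1. In Mx1-Cre, 8 of 40 were called under it, where 21.7% of all genes were, and Map1lc3b was not among them (-0.12, adjusted p = 0.271). No called member changed sign under any alternative run. By the annotation (GENCODE vM21), 10 of the 15 members called in any comparison overlap another gene, and Ulk2, Tfe3, Mcoln1, Gabarap and Atp6v0d1 do not. Map1lc3b, Uvrag and Ctsl overlap one on their own strand, as does Ctsd, and the sources used here do not say whether reads were counted by strand.

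Between genotypes, differences were smaller. Averaged over both treatments, Becn1, Uvrag, Ctsb and Ctsl were lower in P95H and none was higher: 4 of 40 called by limma, where 10.5% of all genes were called (7.88% lower, 2.66% higher). Under PHZ alone, 2 of 40 were lower, Becn1 and Ctsb, where 5.47% of all genes were called (4.37% lower, 1.10% higher). Under PBS, 0 of 40 were called by limma (lowest adjusted p = 0.2, and 2 at an unadjusted p under 0.05), where 1.48% of all genes were called (1.12% lower, 0.358% higher). Estimates were below 0 for 35 of 40 under PBS and 30 of 40 under PHZ, beside 6559 and 7358 of the 10890 genes. Averaged estimates were below 0 for 34 of 40, beside 7369 of the 10890 genes. In each case the share was larger among the members, a difference that was not tested. The genotype calls depended on the scaling. With the per-library factor divided out, none of the 4 passed, and 29 of 40 averaged estimates stayed below 0 in place of 34.

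After quantile normalization, 22 of 40 averaged estimates were below 0, Becn1 alone was called lower on average, and Tax1bp1 alone was called under PHZ, as higher. Over all genes, that scaling moved the split of higher and lower calls from 290 and 858 to 394 and 406 on average, from 120 and 476 to 129 and 163 under PHZ and from 39 and 122 to 52 and 80 under PBS. With the factor divided out the splits were 331 and 448 on average and 132 and 145 under PHZ.

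Becn1 (chromosome 11, 101285952 to 101302286, minus strand) had the smallest adjusted p of these 4. Its values, given above, were 108 to 113 in Mx1-Cre PBS and 113 to 116 in Mx1-Cre PHZ libraries, against 99.6 to 106 in P95H PBS and 98.8 to 109.7 in P95H PHZ libraries. P95H libraries lay below all Mx1-Cre libraries within each treatment, which held for 2.78% of all genes under PBS and 5.38% under PHZ. The opposite order, which no member had, held for 0.891% and 1.57%, so 3.67% and 6.95% did not overlap in either direction. Limma gave -0.13 (SE 0.0278, adjusted p = 0.0051) on average. Under PBS its estimate was -0.11 (SE 0.0393, adjusted p = 0.2), and PHZ gave -0.15 (SE 0.0393, adjusted p = 0.0329). The averaged call was lost with the factor divided out (-0.09, adjusted p = 0.117), and the call under PHZ without any 1 of Mx1-Cre PHZ 1, 3, 4 and 5, P95H PHZ 2, 3 and 4, adjusted p = 0.0608 to 0.0852. Uvrag, which pairs with Beclin at endosomes (chromosome 7, 98885021 to 99141141, minus strand), ran from 12.1 ± 0.65 in P95H PHZ to 14.2 ± 0.8 in Mx1-Cre PBS libraries (SD, n = 5). Its averaged estimate was -0.14 (SE 0.0395, adjusted p = 0.0264), and P95H lay below all Mx1-Cre libraries under PHZ. The averaged call was lost on leaving out any 1 of Mx1-Cre PBS 1 and 2, Mx1-Cre PHZ 3, P95H PBS 5, adjusted p = 0.0507 to 0.0531, and with the granulocyte markers as a covariate (adjusted p = 0.0578).

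Ctsb (chromosome 14, 63122462 to 63145923, plus strand) was the other member lower under PHZ. The 5 Ctsb values in Mx1-Cre mice were 187, 195, 201, 175 and 174 under PBS and 190.5, 214, 203, 185 and 192 under PHZ. For Ctsb in P95H mice, they were 179, 171, 161, 169 and 165 under PBS and 191, 140.2, 149, 159.9 and 186 under PHZ. P95H values were lower on average in both treatments, with overlap in both. Limma gave -0.20 (SE 0.0512, adjusted p = 0.0147) on average and -0.26 (SE 0.0724, adjusted p = 0.0381) under PHZ. The call under PHZ was lost on leaving out any 1 of Mx1-Cre PHZ 1, 2, 3 and 5, P95H PHZ 2, 3 and 4, adjusted p = 0.0551 to 0.104, and the averaged one after quantile normalization (adjusted p = 0.0537) and with the factor divided out (adjusted p = 0.0598).

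Ctsl (chromosome 13, 64359337 to 64370890, minus strand) followed. The 5 Ctsl values in Mx1-Cre mice were 31.2, 39.7, 38.8, 34.6 and 40.9 under PBS and 31.8, 35.7, 37.8, 31.5 and 38.6 under PHZ. For Ctsl in P95H mice, they were 37.7, 31.3, 30.9, 36.6 and 31.5 under PBS and 28.3, 29.3, 25.3, 32.9 and 27.95 under PHZ. Groups overlapped in both treatments, and the averaged estimate was -0.21 (SE 0.0595, adjusted p = 0.0284) by limma. It was lost on leaving out any 1 of Mx1-Cre PBS 2, 3 and 5, Mx1-Cre PHZ 3, P95H PBS 2, 3 and 5, P95H PHZ 3, adjusted p = 0.0508 to 0.0572. The other proteases were not called, with averaged estimates of -0.05 (SE 0.0463) for Ctsd and -0.24 (SE 0.114) for Ctsc. Foxo3 under PBS was below all Mx1-Cre libraries in P95H, at -0.14 (SE 0.101, adjusted p = 0.568). Among the kinases, receptors and factors that define the pathway, averaged estimates were -0.07 (SE 0.0535) for Ulk1, -0.04 (SE 0.043) for Sqstm1, -0.04 (SE 0.0471) for Map1lc3b, -0.03 (SE 0.0525) for Tfe3 and -0.0056 (SE 0.0595) for Tfeb, none called.

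**Figure D4:**
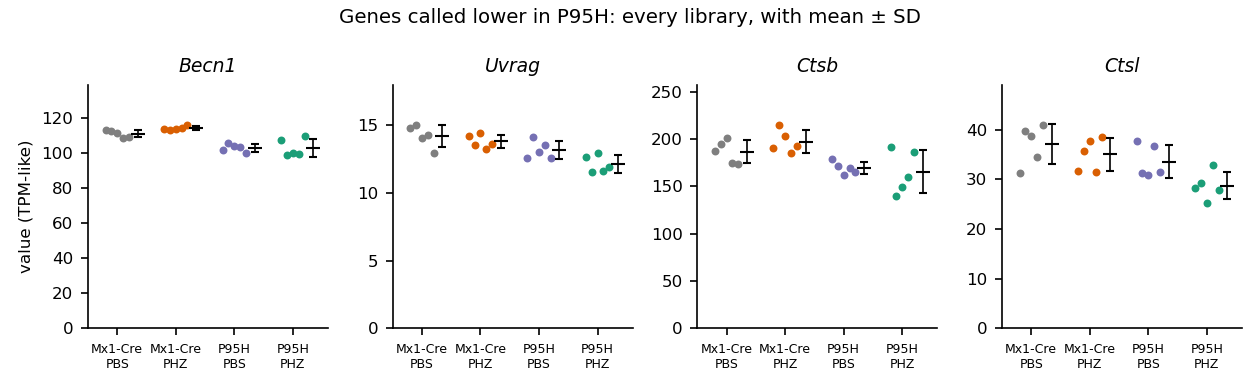
Every library (points) with mean ± SD (bars, n = 5) for the 4 genes called lower in P95H on average over both treatments, on linear axes of the normalised value from 0. Becn1 in P95H lies below all Mx1-Cre libraries within each treatment, whereas Ctsb and Ctsl overlap.

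Whether the PHZ response itself differed between genotypes was tested by the interaction. No member passed (0 of 40 by limma, lowest adjusted p = 0.798, and 2 at an unadjusted p under 0.05), and 0% of all genes did. Those 2 were Atg13, at 0.27 (SE 0.111), and Tax1bp1, at 0.18 (SE 0.0722). Estimates of the difference ran from -0.15 (Atg101) to 0.27 (Atg13).

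A set of 7 further lists of autophagy and lysosome genes was read the same way. The share called is to be read beside 31.9% of all genes in Mx1-Cre and 30.2% in P95H. Of 27 other autophagy core genes, 4 rose and 2 fell with PHZ in Mx1-Cre and 2 rose and 4 fell in P95H. Wdr45, a lipid-binding relative of the WIPI proteins, fell in Mx1-Cre (-0.44, SE 0.109) and was at -0.24 (SE 0.109) in P95H. Nrbf2, a subunit of the lipid kinase complex, fell in P95H (-0.32, SE 0.0675) and was at -0.16 (SE 0.0675) in Mx1-Cre. Tmem41b, a lipid scramblase, rose in both (0.28, SE 0.092 and 0.28, SE 0.092), a call lost on leaving out any 1 of Mx1-Cre PBS 4, Mx1-Cre PHZ 2 and 3, adjusted p = 0.0677 to 0.0896 in limma's Mx1-Cre contrast, and without any 1 of P95H PBS 4 and 5, P95H PHZ 3 and 4, adjusted p = 0.0528 to 0.0606 in P95H. Between genotypes, Ambra1, a scaffold that binds Beclin, was lower in P95H on average (-0.13, SE 0.0383), a call lost on leaving out any 1 of Mx1-Cre PBS 1, 2 and 3, Mx1-Cre PHZ 1, 2 and 4, P95H PBS 5, P95H PHZ 2 and 3, adjusted p = 0.0505 to 0.0673. It was also lost after quantile normalization (limma adjusted p = 0.332) and with the per-library factor divided out (limma adjusted p = 0.23).

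Of 19 genes of mitophagy and other selective receptors, 1 rose and 5 fell in Mx1-Cre, and 2 rose and 3 fell in P95H. Pink1, the kinase that marks damaged mitochondria, fell from 35.4 ± 7.91 to 22.4 ± 2.28 in Mx1-Cre and from 29.9 ± 3.86 to 20.8 ± 5.49 in P95H (SD, n = 5), -0.62 (SE 0.149, adjusted p = 0.00385) and -0.53 (SE 0.149, adjusted p = 0.0104) by limma. With the granulocyte markers as a covariate the P95H call was lost (-0.31, adjusted p = 0.397). Mul1, a mitochondrial ubiquitin ligase, rose in both (0.33, SE 0.0946 and 0.30, SE 0.0946), and Wdfy3, a scaffold for aggregate removal, fell in both (-0.34, SE 0.0827 and -0.24, SE 0.0827). In P95H these calls were lost on leaving out any 1 of P95H PBS 4 and 5, P95H PHZ 1, adjusted p = 0.0526 to 0.0654 for Mul1, and without any 1 of P95H PBS 2, 4 and 5, P95H PHZ 4 and 5, adjusted p = 0.0618 to 0.079 for Wdfy3 (limma). Between genotypes, Wdfy3 was lower in P95H on average (-0.19, SE 0.0585, adjusted p = 0.045), a call lost in 18 of 31 alternatives, among them on leaving out any 1 of Mx1-Cre PBS 1, 2, 3 and 4, Mx1-Cre PHZ 1 and 2, P95H PBS 1, 3, 4 and 5, P95H PHZ 3, 4 and 5, adjusted p = 0.0505 to 0.0858.

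Of 38 further lysosomal hydrolases, 9 rose and 8 fell in Mx1-Cre, and 8 rose and 6 fell in P95H. The 5 Ctsf values in Mx1-Cre mice were 1.56, 2.04, 2.65, 2.87 and 1.29 under PBS and 10.5, 13.8, 12.1, 9.56 and 8.41 under PHZ. For Ctsf in P95H mice, they were 1.33, 1.34, 1.74, 1.44 and 1.48 under PBS and 11.3, 8.23, 12.2, 8.05 and 11.8 under PHZ. Ctsf, a cysteine protease, was above all PBS libraries in every PHZ library, and rose by 1.96 (SE 0.146, adjusted p = 3.72e-09) in Mx1-Cre and 2.18 (SE 0.146, adjusted p = 5.69e-10) in P95H (limma). The 5 Galns values in Mx1-Cre mice were 18.1, 13.8, 19.3, 15.6 and 18.1 under PBS and 4.27, 6.95, 4.59, 3.14 and 5.23 under PHZ. For Galns in P95H mice, they were 12.4, 15.5, 15.6, 16.6 and 18.4 under PBS and 4.07, 1.94, 2.59, 3.6 and 1.89 under PHZ. Galns, a sulfatase of keratan sulfate, lay below all PBS libraries in every PHZ library, at -1.65 (SE 0.165, adjusted p = 3.62e-07) and -2.16 (SE 0.165, adjusted p = 7.78e-09). Acp5, the tartrate-resistant acid phosphatase, fell in Mx1-Cre (-1.12, SE 0.279, adjusted p = 0.00568) and was at -0.56 (SE 0.279, adjusted p = 0.143) in P95H.

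Between genotypes, 6 of the 38 hydrolases were called on average, 5 lower and 1 higher, where 10.5% of all genes were called (7.88% lower, 2.66% higher). The higher was Idua, an iduronidase. The 5 Idua values in Mx1-Cre mice were 6.31, 6.45, 5.501, 5.63 and 5.17 under PBS and 5.58, 6.296, 6.05, 4.91 and 4.99 under PHZ. For Idua in P95H mice, they were 8.62, 9.72, 8.73, 7.71 and 7.95 under PBS and 7.47, 8.66, 9.04, 10.5 and 6.76 under PHZ. All 10 P95H values lay above all 10 Mx1-Cre values, and limma gave 0.50 (SE 0.0685, adjusted p = 7.63e-05) on average. Under PBS its estimate was 0.49 (SE 0.0969, adjusted p = 0.00979), and PHZ gave 0.52 (SE 0.0969, adjusted p = 0.00386). None of the alternatives run ended these 3 calls. Idua (chromosome 5, 108660331 to 108684557, plus strand) overlaps Slc26a1 and Dgkq, both on the opposite strand, and the sources used here do not say whether reads were counted by strand. Galns was lower in P95H under PHZ (-0.62, SE 0.165) and on average (-0.36, SE 0.117), and limma's calls were lost on leaving out any 1 of Mx1-Cre PHZ 2, 3 and 5, P95H PHZ 2, 3 and 5, adjusted p = 0.0649 to 0.0837 under PHZ, and in 24 of 31 alternatives on average, among them without any 1 of Mx1-Cre PBS 1, 3, 4 and 5, Mx1-Cre PHZ 1, 2, 3 and 5, P95H PBS 1, 2, 3 and 4, P95H PHZ 2, 3 and 5, adjusted p = 0.0529 to 0.0883. Manba, the mannosidase, was lower on average (-0.27, SE 0.0797), lost on leaving out any 1 of Mx1-Cre PBS 1, 2 and 4, Mx1-Cre PHZ 2, 3 and 5, P95H PBS 2 and 3, P95H PHZ 1, 3 and 5, adjusted p = 0.0506 to 0.06. This Manba call was also lost after quantile normalization (limma adjusted p = 0.105) and with the per-library factor divided out (limma adjusted p = 0.0548).

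Of 29 lysosomal membrane genes, 3 rose and 4 fell in Mx1-Cre and 4 rose and 6 fell in P95H. Abcb9, a peptide transporter, fell in both (-0.90, SE 0.106, adjusted p = 2.08e-06 and -0.76, SE 0.106, adjusted p = 1.46e-05 by limma), with no overlap between treatments. Slc38a9, the arginine sensor that feeds mTORC1, fell from 34.96 ± 7.16 to 20.5 ± 2.94 in Mx1-Cre and from 28.5 ± 5.02 to 21.1 ± 4.52 in P95H (SD, n = 5), -0.73 (SE 0.149, adjusted p = 0.00104) and -0.42 (SE 0.149, adjusted p = 0.0369). The second was lost on leaving out any 1 of P95H PBS 1, 2 and 4, P95H PHZ 1, 2, 3 and 4, adjusted p = 0.0524 to 0.105. Cd63, a tetraspanin also abundant in granulocytes, fell in P95H (-0.78, SE 0.279). The call was lost on leaving out any 1 of P95H PBS 1, 4 and 5, P95H PHZ 1, 2, 3 and 5, adjusted p = 0.0572 to 0.11. With the granulocyte markers as a covariate its estimate was 0.11 (adjusted p = 0.847). All 15 of these markers tested fell with PHZ in P95H, so marker level and treatment cannot be told apart there. The part of granulocytes in the Cd63 result was not tested. Scarb2, a sorting receptor, was lower in P95H on average (-0.21, SE 0.0475, adjusted p = 0.00694, and 0.0585 after quantile normalization). Sidt2, a nucleic acid transporter, was also lower on average (-0.11, SE 0.0333, adjusted p = 0.0373). This call was lost on leaving out any 1 of Mx1-Cre PBS 1 and 3, Mx1-Cre PHZ 1, 2, 3 and 4, P95H PBS 1, 2 and 5, P95H PHZ 2, 3 and 4, adjusted p = 0.0528 to 0.0699. It was also lost after quantile normalization (limma adjusted p = 0.283) and with the per-library factor divided out (limma adjusted p = 0.32). Sidt2 means in Mx1-Cre and P95H were 52.7 and 45.5 under PBS, and 56.5 and 56.1 under PHZ. Under PBS it was called lower in P95H (-0.21), which was lost in 8 of 22 alternatives. With PHZ it rose in P95H (0.30), a call kept in all 22.

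Of 17 proton pump subunits, 3 rose and 0 fell in Mx1-Cre and 2 rose and 3 fell in P95H by limma, and none was called between genotypes. Tcirg1, Atp6v0b and Atp6v1g1 were the 3 that fell in P95H (-0.28, SE 0.106, -0.26, SE 0.0688 and -0.25, SE 0.0704), and all 3 calls were lost with the granulocyte markers as a covariate, under which the estimates were -0.35, -0.29 and -0.13. That of Tcirg1 was also lost on leaving out any 1 of P95H PBS 1, 3 and 4, P95H PHZ 1, 3 and 5, adjusted p = 0.0668 to 0.153 in limma. Of 29 genes of lysosomal sorting and tethering, 6 rose and 1 fell in Mx1-Cre and 3 rose and 3 fell in P95H. Bloc1s1, a subunit of a complex that positions lysosomes, fell (-0.56, SE 0.0944, adjusted p = 0.000153 and -0.58, SE 0.0944, adjusted p = 9.65e-05). Vps8, an endosomal tether, rose (0.44, SE 0.066 and 0.41, SE 0.066), as did Arl8b, a GTPase that moves lysosomes outward (0.37, SE 0.0609 and 0.30, SE 0.0609). Gga2, an adaptor for hydrolase sorting, was lower in P95H on average (-0.13, SE 0.0353). This call was lost after quantile normalization (adjusted p = 0.0769) and once the per-library factor was divided out (adjusted p = 0.147). On average Hps3 and Vps16, subunits of sorting and tethering complexes, were higher (0.17, SE 0.0512 and 0.10, SE 0.0315). Limma's call of Hps3 was lost on leaving out any 1 of Mx1-Cre PBS 4, Mx1-Cre PHZ 4, P95H PBS 1, 3 and 5, P95H PHZ 2 and 3, adjusted p = 0.0512 to 0.0635, and that of Vps16 in 21 of 31 alternatives, among them without any 1 of Mx1-Cre PBS 2, 3 and 4, Mx1-Cre PHZ 1, 2, 3 and 4, P95H PBS 1, 3, 4 and 5, P95H PHZ 2, 3, 4 and 5, adjusted p = 0.0566 to 0.0872.

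Of 22 regulators of TFEB, TFE3 and FOXO factors, 6 rose and 1 fell in Mx1-Cre and 2 rose and 2 fell in P95H, and none was called between genotypes by limma (4 at an unadjusted p under 0.05 on average). Lamtor2, part of the anchor of mTORC1 at the lysosome, fell from 129 ± 16.7 to 102 ± 8.11 in Mx1-Cre and from 119.7 ± 6.34 to 94.03 ± 7.97 in P95H (SD, n = 5), -0.33 (SE 0.0764, adjusted p = 0.00256) and -0.35 (SE 0.0764, adjusted p = 0.00157). Prkag1, a subunit of the energy sensor AMPK, rose (0.30, SE 0.0542, adjusted p = 0.000331 and 0.21, SE 0.0542, adjusted p = 0.00472). Rragb, a GTPase that recruits mTORC1, rose in Mx1-Cre (0.29, SE 0.104), a call lost on leaving out any 1 of Mx1-Cre PBS 2, 3 and 4, Mx1-Cre PHZ 1, 2, 3 and 4, adjusted p = 0.0529 to 0.107. Under the granulocyte marker covariate, with 8.82% of all genes called in P95H, the P95H calls of Nrbf2 (estimate -0.25), Tmem41b (0.16), Mul1 (0.22), Slc38a9 (-0.48), Bloc1s1 (-0.31), Arl8b (0.21) and Lamtor2 (-0.17) were lost. So were the Mx1-Cre calls of Wdr45 (-0.29), Tmem41b (0.21), Mul1 (0.29) and Rragb (0.28). Those of Ctsf, Galns, Abcb9, Wdfy3, Vps8 and Prkag1 held in both genotypes.

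**Figure D5:**
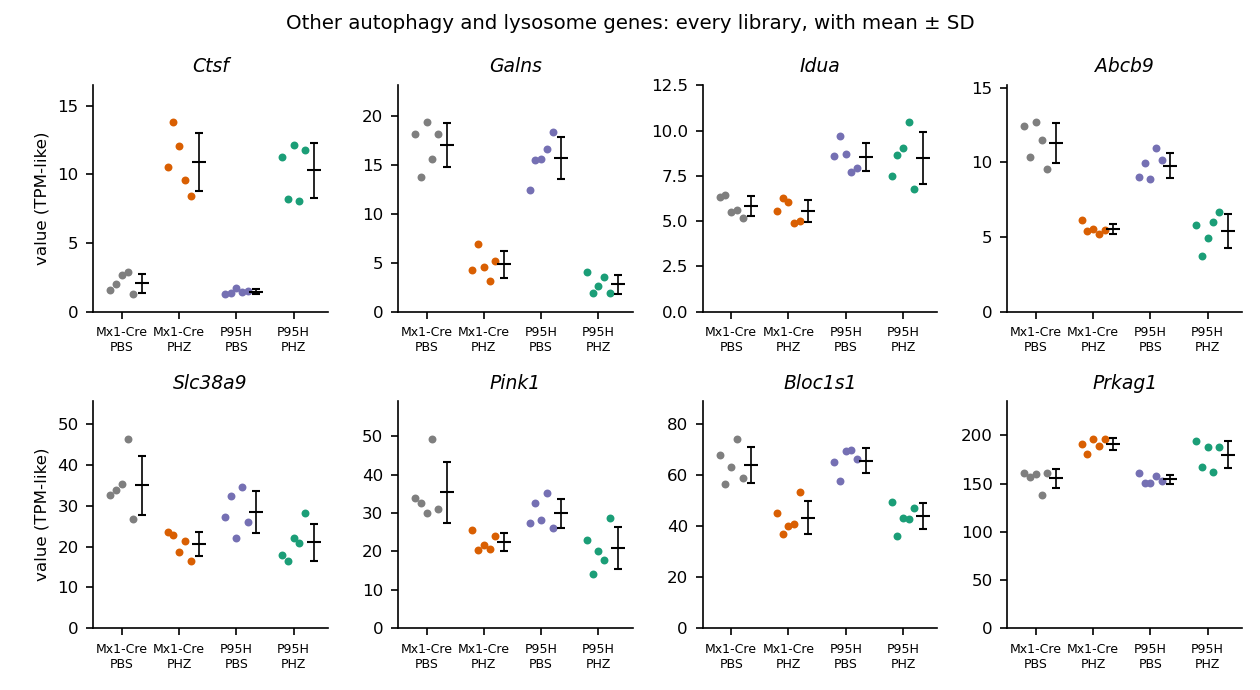
Every library (points) with mean ± SD (bars, n = 5) for 8 further autophagy and lysosome genes, on linear axes of the normalised value from 0. Ctsf and Galns separate PBS from PHZ libraries in both genotypes, and Idua separates P95H from Mx1-Cre libraries under both treatments.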

How the data were processed

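RNA sequencing of sorted CFU-E cells gave 20 libraries in 4 groups of 5, by genotype and treatment per the labels. The deposited table holds 1 normalised signal per gene and library. The values match TPM rounded to 0.01 times 1 factor per library (0.940 to 1.10), as found from the values. The sources used here do not say who set the factors. The submitters' processing notes name TopHat, TopHat2 2.0.8b, RSEM 1.2.4 and Bowtie, and builds hg19, GRCh37, mm10 and GRCm38, with no role for each. The table gives no counts, so no count model was used and no counting interval can be given.

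Symbols came from GENCODE vM21 (GRCm38) and matched 35986 of 37748 identifiers. Genes that reached 1 in 5 or more libraries were kept (10890). Values were taken as log2(value + 1) and fitted with limma 3.58.1 (R 4.3.3, trend and robust) over all 20 libraries, with 4 group means, 6 contrasts and Benjamini-Hochberg adjustment over all 10890 genes at 0.05. The fit was also run on simulated data, whose noise was independent and whose changes were larger than the members' genotype estimates. That run does not bear on changes as small as those. Python 3.11.15, numpy 2.4.6, pandas 2.3.3 and matplotlib 3.10.9 were used. Alternatives were other pseudocounts, filters, scalings and covariates, a replicate block, and leaving out libraries.

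The members and lists were chosen with earlier results of these data known. Full values are given for members called with an absolute log2 difference of at least 0.4 and for Ulk1, Becn1, Map1lc3b, Sqstm1, Tfeb, Foxo3, Lamp1 and Ctsd. Those of Gabarap, Tfe3, Ctsb, Ctsl, Hexa and Mcoln1 were added after their values were seen. From each further list, up to 3 genes called after PHZ (mean of at least 5) and up to 3 called between genotypes are named, the most changed first.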

Additional observations from a re-analysis of the deposited data

Results flagged for a closer look

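In 3 of 72 groups of 5 libraries examined, 1 library stood apart from the other 4 by more than Dixon's 95% critical value, and chance gives about 1 in 20. Map1lc3b in P95H PBS was 131 in replicate 3, with the next value at 141. Foxo3 in P95H PBS was 36.1 in replicate 4, with the next at 37.3. Ctsc in Mx1-Cre PBS was 2.93 in replicate 3, with the next at 4.33, and lay below all PHZ libraries like the other 4.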

How the results depend on the processing

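Of 23 calls of members, 10 held under every alternative run, 13 were lost under at least 1, and 0 changed sign. The 8 calls after PHZ in Mx1-Cre became 13 after quantile normalization and 14 with the compared groups alone, and 6 to 11 when 1 library was left out. In that order, 31.6%, 33% and 23.8% to 32% of all genes were called, against 31.9% in the main fit. The 9 in P95H became 4 with a granulocyte and monocyte marker covariate, under which the share of all genes called went from 30.2% to 8.82%, and 7 to 13 when 1 library was left out. With 1 library left out, that share ran from 24.7% to 31.6%. The 2 between genotypes under PHZ became 1 without the filter on low values and 1 after quantile normalization (another gene, Tax1bp1). They became 0 once the per-library factor was divided out, 0 when the compared groups were fitted alone, and 0 to 2 when 1 library was left out. Of all genes, 3.73% were called without the filter, 2.68% after quantile normalization and 2.54% with the factor divided out. The share was 3.17% with the compared groups alone and 2.93% to 6.39% without 1 library, against 5.47% in the main fit. The 4 on average became 1 after quantile normalization, 0 with the factor divided out, 2 without both P95H PBS libraries 4 and 5, and 2 to 4 when 1 library was left out. In that order, 7.35%, 7.15%, 7.5% and 8.25% to 11.4% of all genes were called, against 10.5% in the main fit. Counts under PBS and for the interaction were 0 throughout, where at most 1.74% and 0.00494% of all genes were called. The cause of these moves was not tested.

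With the replicate number as a block, the counts were 8, 8, 0, 1, 4 and 0 in the order PHZ in Mx1-Cre, PHZ in P95H, genotype under PBS, under PHZ, on average, and the interaction. The shares of all genes called were 32.9%, 30.8%, 1.74%, 5.67%, 11.4% and 0% in the same order. For libraries of the same number, the median correlation of their deviations was 0.0282. Of 30 pairs, 13 exceeded 0.1, and 3 of 20 libraries were closest to their own number. These values did not show that the numbers pair the samples. The 5 libraries per group and an unknown depth limit the detection of small changes in low genes such as Tfeb.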
